A study of Mus musculus with 6 samples.

Results

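The genes described here are 9 genes whose proteins are known substrates or partners of the deubiquitinase USP7: *Daxx*, *Mdm4*, *Dnmt1*, *Uhrf1*, *Foxo4*, *Rnf2*, *Bmi1*, *Rnf168*, and *Kat5*. They were taken by gene name, with no measured value in the rule, and each was found among the 34787 gene names printed on the array. The cells were bone marrow–derived macrophages (BMDMs) of female wild type C57BL/6 mice, grown from marrow for 7 days in medium conditioned by L929 cells, a mouse fibroblast line whose medium holds the growth factor of macrophages. Untreated BMDMs (n = 2) received neither agent. BMDMs of the LPS group (n = 2) received lipopolysaccharide, the bacterial ligand of the receptor TLR4, at 100 ng/ml for 4 h, and BMDMs of the LPS+USP7i group (n = 2) received the same LPS 30 min after HBX41,108, a small molecule USP7 inhibitor, at 10 μM. The strain is given here as the labels spell it, where the methods of the study write C57BL6/J. The labels give an age of 6 to 8 weeks, which differs from the age range in those methods, and one of the label fields writes the LPS dose per μl where the series description writes it per ml. The sources used here leave unsaid whether the LPS group was given solvent in place of HBX41,108, and no group received HBX41,108 without LPS. The values are averages over a culture, in which fewer cells of a type and less RNA per cell cannot be told apart.

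USP7 removes ubiquitin from other proteins. Its best known role is to protect the p53 ligase MDM2, its partner MDM4, and p53 itself from degradation. It also stabilizes enzymes that write ubiquitin on histones and that keep DNA methylated through cell division, and it removes monoubiquitin from the transcription factor FOXO4. All of this acts on protein, whereas the arrays measured RNA, so the values below are the transcript levels of the substrates and say nothing about how much of each protein was present.

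The label of the cells was checked against marker genes. All 10 macrophage markers, among them *Adgre1*, *Csf1r*, and *Lyz2*, were well above background on all 6 arrays, whereas 0 of 5 fibroblast, 0 of 4 erythroid, and 0 of 3 NK cell markers were. The summed macrophage markers reached 19.5 on the log2 scale on both untreated arrays, 19.5 on both LPS arrays, and 19.2 and 19.3 on the LPS+USP7i arrays. Of 6 T cell markers 3 were well above background on every array, while *Cd3g* and *Cd8a* were so on none. Their summed signal was higher with LPS (12.1 on both arrays) than in untreated cells (11.04 and 11.16) or with the inhibitor (11.1 and 11.4), and the part of this in the results below was not tested. The summed dendritic cell markers were lower with LPS (14.60 and 14.63) than in untreated cells (15.22 and 15.46) or with the inhibitor (15.08 and 15.65), with *Flt3* and *Xcr1* well above background on none of the arrays. The neutrophil sum was likewise lowest with LPS (11.98 and 12.02), between 12.03 and 12.12 in untreated cells, and between 12.15 and 12.17 with the inhibitor. *Dnmt1* and *Xpc*, below, had their lowest signal in the same group, and the part of either list in those results was not tested. For the other types, 2 of 5 B cell, 4 of 6 neutrophil, 1 of 4 dendritic cell, and 1 of 3 endothelial markers were well above background on every array. The NK cell sum was 5.16 to 5.48 in untreated cells, 5.55 to 7.70 with LPS, and 5.17 to 6.29 with the inhibitor. In the same order the fibroblast sum was 5.91 to 5.99, 6.31 to 6.78, and 6.02 to 6.53. The erythroid sum was instead lower with LPS (5.23 to 5.64) than in untreated cells (5.86 to 5.88). The part of these sums in the results was not tested. All 6 arrays lay on 1 slide read in 1 scan, the untreated arrays in row 1, those with LPS in row 2, and those with LPS+USP7i in row 4, with replicate 1 of each group in column 1 and replicate 2 in column 2, so slide row and treatment cannot be told apart.

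The 9 genes were measured by 15 probes of 60 bases, with 1 probe for *Daxx*, *Dnmt1*, *Rnf2*, and *Rnf168*, 2 for *Mdm4*, *Uhrf1*, *Bmi1*, and *Kat5*, and 3 for *Foxo4*. Of these, 11 probes for 8 genes were well above background on all 6 arrays. *Foxo4* was the exception. No spot of the 9 genes was flagged as an outlier and no spot on any array was saturated. Probe 1 is the brightest probe of a gene and stands for the gene in counts of genes. The probes of the gene with the largest response to LPS (*Daxx*), of the gene that rose with the inhibitor (*Dnmt1*), and the second probes of *Uhrf1* and *Mdm4*, which are compared with the first below, are shown as printed in the deposited array files, 5′ to 3′, with their positions on mm9.
*Daxx* probe 1, chr17:34052404-34052463: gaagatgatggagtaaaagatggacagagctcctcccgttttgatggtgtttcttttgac
*Dnmt1* probe 1, chr9:20711973-20712341: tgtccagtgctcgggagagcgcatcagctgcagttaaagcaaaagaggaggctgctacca
*Uhrf1* probe 2, chr17:56451668-56452321: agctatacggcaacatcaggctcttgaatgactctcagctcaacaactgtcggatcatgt
*Mdm4* probe 2, chr1:134888407-134888466: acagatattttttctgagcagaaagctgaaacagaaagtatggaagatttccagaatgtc
The *Dnmt1* and *Uhrf1* probes cover 369 and 654 bases of genome with 60 bases of sequence, so each spans at least 1 intron. No mm9 annotation was used, and whether a probe lies in coding sequence was not derived.

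LPS changed 5 of the 9 genes. *Daxx* and *Rnf2* rose, and *Dnmt1*, *Uhrf1*, and *Rnf168* fell, at an adjusted p under 0.05 in limma. Of all 34786 genes tested, 7.98% rose and 12.8% fell, and of the 15612 genes well above background on every array 14.1% rose and 23.9% fell. The latter include 8 of the 9 genes. Whether 2 rises and 3 falls among so few genes exceed these shares was not tested. With the inhibitor on top of LPS, *Dnmt1* was higher and *Uhrf1* lower than with LPS alone, and 7 of the 9 genes did not pass the threshold. Of all genes tested 5.52% were higher and 4.27% lower in that comparison (9.74% and 7.42% of those well above background throughout), and with 9 genes 1 call in each direction is not set apart from that background. With only the LPS and LPS+USP7i arrays in the fit, or without untreated replicate 1 or 2, 0 genes of the 9 and 0 of all probes passed in limma, although 6051 probes were higher and 5206 lower at an unadjusted p under 0.05 in the first of these fits. With the replicate number as a block, 0 of the 9 genes passed in limma (adjusted p = 0.0533 for *Dnmt1* and 0.0629 for *Uhrf1*). Of all probes 1947 were higher and 1596 lower in that fit. Of the 9 genes, 1 was higher and 3 were lower at the unadjusted level in these fits and in the main analysis. The median difference of the 9 genes was −0.12 on the log2 scale for LPS against untreated cells and −0.098 for LPS+USP7i against LPS. Over all genes it was 0.0016 and 0.00092, and over the genes well above background on every array −0.18 and 0.055. Relative to untreated cells, the same 5 genes passed with LPS+USP7i, each in the same direction as with LPS alone. Beside them were 6.16% of all genes higher and 8.71% lower, and 10.9% and 16.3% of those well above background on every array. The LPS arrays enter 2 of these comparisons and the untreated arrays enter 2, so the comparisons are not independent of each other. With 2 arrays against 2, an exact permutation test cannot give a two-sided p below 0.333 for a single gene, and every call rests on the spread that limma pools over the 6 arrays.

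**Figure D1:**
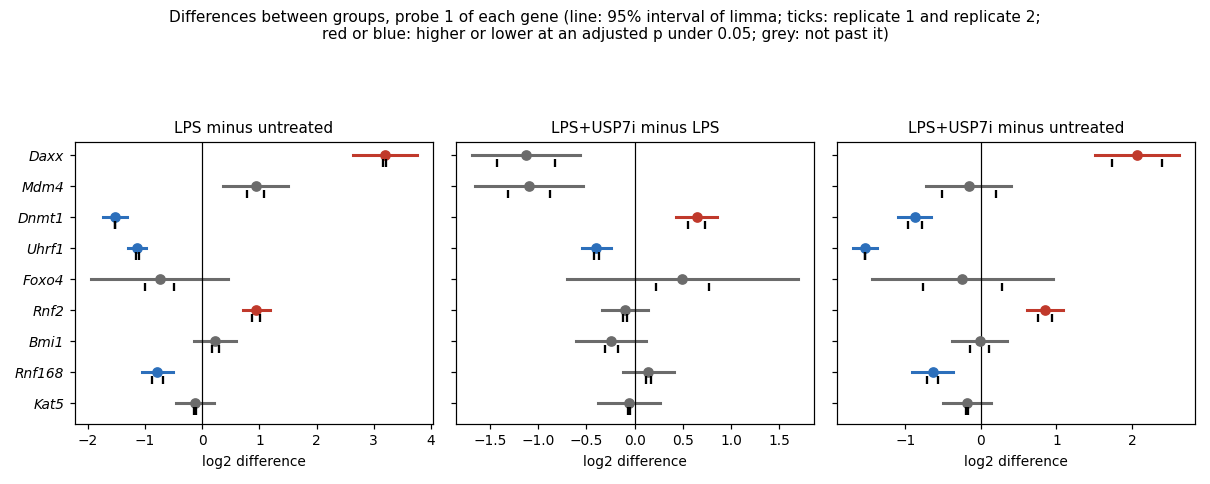
Log2 differences between groups for probe 1 of each of the 9 genes (x axis, log2 scale; each panel has its own scale) with the 95% interval of limma as a line and the differences between arrays of the same replicate number as ticks. With LPS, *Daxx* lies furthest to the right at 3.19 and *Dnmt1* furthest to the left at −1.52, and in the middle panel only *Dnmt1* and *Uhrf1* are colored as passing the threshold.

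*Daxx* and *Mdm4* belong to the p53 branch. DAXX is an adaptor that holds USP7 and MDM2 together and is also a histone chaperone of PML nuclear bodies, and MDM4 binds and inhibits p53. The log2 signal of *Daxx* was 13.34 and 12.99 in untreated BMDMs, 16.51 and 16.21 after LPS, and 15.07 and 15.38 after LPS+USP7i. The 3 groups did not overlap. Both LPS arrays were above both LPS+USP7i arrays, which in turn were above both untreated arrays. LPS raised *Daxx* 9.14-fold, a log2 difference of 3.19 (SE 0.20, adjusted p = 0.00434) with 3.17 in replicate 1 and 3.22 in replicate 2. This rise passed the threshold under all 15 alternative settings. With LPS+USP7i *Daxx* was still 4.18-fold above untreated cells (log2 difference 2.06, SE 0.20, adjusted p = 0.0122), although without untreated replicate 1 or 2 this missed the threshold (adjusted p = 0.0507 and 0.0639).

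Compared with LPS alone, *Daxx* in LPS+USP7i was at a log2 difference of −1.13 (SE 0.20, 95% interval −1.69 to −0.57), 2.19-fold lower, with −1.43 in replicate 1 and −0.82 in replicate 2. At an adjusted p of 0.0536 this did not pass the threshold. It was past the threshold after normexp correction of the background (adjusted p = 0.0124), with the log2 table of the authors (0.0435), with dim probes left out (0.0153), with a variance prior that follows the signal (0.0387), and with all probes of each gene averaged (0.0444). With only the LPS and LPS+USP7i arrays in the fit the adjusted p was 0.103. Over all 15 alternatives it ranged from 0.0124 to 0.175, and the difference from −1.31 to −0.97.

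Both *Mdm4* probes were dim but above background throughout. Probe 1 (chr1:134886426-134886485, mm9) gave 6.02 and 5.55 in untreated BMDMs, 6.81 and 6.63 after LPS, and 5.50 and 5.75 after LPS+USP7i. Probe 2 gave 5.35 and 5.39, 6.63 and 6.31, and 5.90 and 5.95 in the same order. On both probes the LPS arrays were the highest, but the LPS+USP7i arrays overlapped the untreated arrays on probe 1 and lay above them on probe 2. With LPS the log2 difference was 0.93 on probe 1 (SE 0.20, adjusted p = 0.0538), short of the threshold, and 1.10 on probe 2 (SE 0.13, adjusted p = 0.0118), which passed. Probe 1 passed with 75th percentile scaling (adjusted p = 0.0229), with dim probes left out (0.0166), and with normexp correction, where the difference was 0.43 (0.0436), and the mean of both probes passed as well (0.0142). In LPS+USP7i against LPS the differences were −1.09 (SE 0.20, adjusted p = 0.0578) and −0.55 (SE 0.13, adjusted p = 0.0877), both negative in both replicates and neither past the threshold. Probe 1 passed with normexp correction, where the difference was −0.52 (adjusted p = 0.0320). It also passed with dim probes left out, where the difference was the same −1.09 (adjusted p = 0.0169). The mean of both probes passed too, at −0.82 (adjusted p = 0.0398). Against untreated cells LPS+USP7i gave −0.16 on probe 1 (adjusted p = 0.748) and 0.55 on probe 2 (adjusted p = 0.0720).

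Of 14 genes for DAXX partners, PML bodies, and chaperones of the same histone variant, 6 rose and 2 fell with LPS, with a median of 0.36. Among those past the threshold, *Pml*, which builds the nuclear bodies, rose by 1.83 (adjusted p = 0.00965) and *Sp100*, another component of them, by 1.45 (adjusted p = 0.0298). *Ubn1*, a subunit of the HIRA chaperone complex, had a difference of −1.63 (adjusted p = 0.00486). With the inhibitor, relative to LPS alone, 2 were higher and 2 lower (median −0.38). *Pml* had a difference of −1.38 (adjusted p = 0.0327), *Ubn1* of 1.69 (adjusted p = 0.0128), and the kinase *Hipk1* of 1.16 (adjusted p = 0.0107). The differences of *Pml* had the sign of those of *Daxx* in both comparisons, and those of *Ubn1* the opposite sign.

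**Figure D2:**
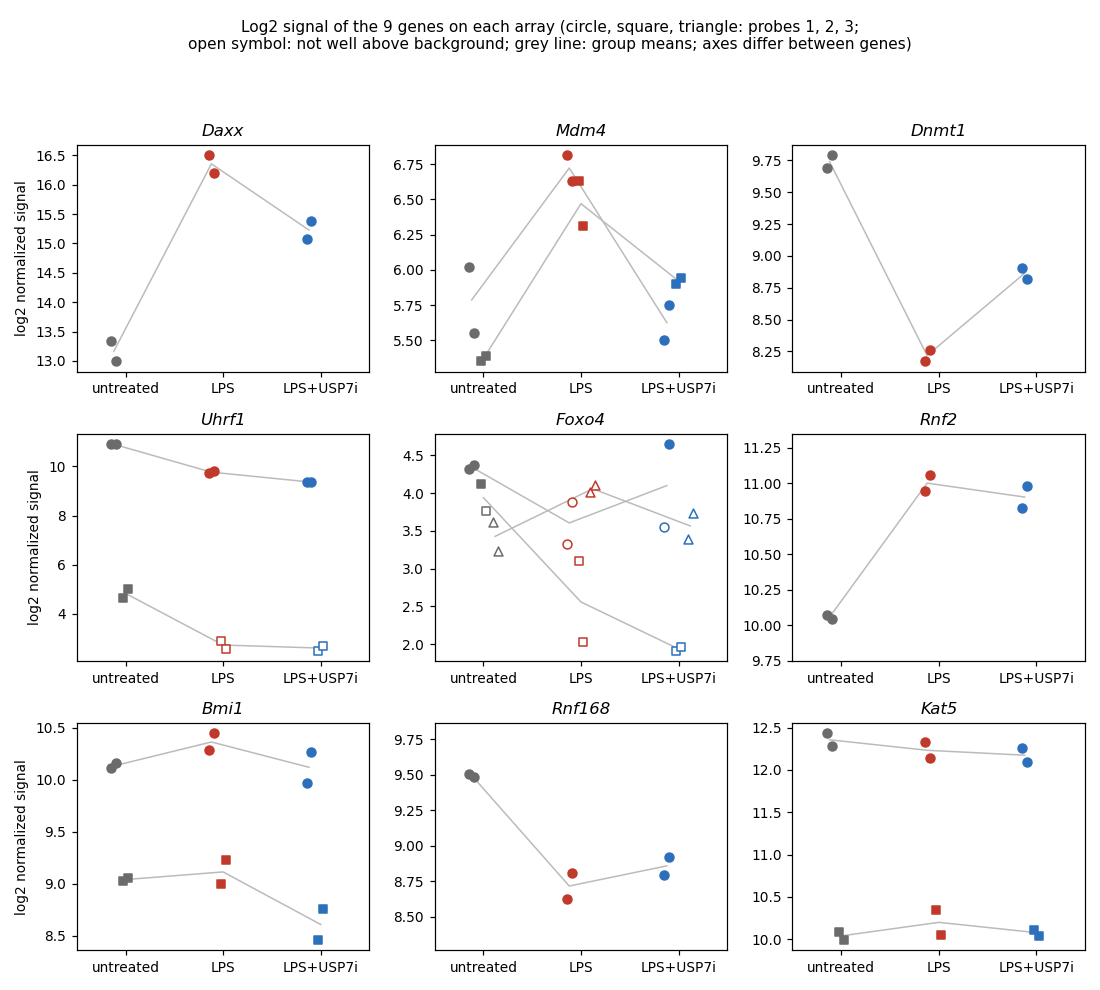
Log2 normalized signal of every probe of the 9 genes on each of the 6 arrays (y axis, a separate range for each gene), by group, with open symbols for arrays on which a probe was not well above background and grey lines through the group means. *Daxx* lies between 12.99 and 16.51, *Dnmt1* shows its lowest values with LPS, probe 1 of *Uhrf1* goes down from group to group, and the *Foxo4* probes are mostly open.

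*Dnmt1* and *Uhrf1* act together in maintenance of DNA methylation. DNMT1 copies methyl marks to the new DNA strand and UHRF1 recognizes the half-methylated sites and recruits it. *Dnmt1* gave 9.69 and 9.79 in untreated BMDMs, 8.17 and 8.26 after LPS, and 8.91 and 8.82 after LPS+USP7i. The groups did not overlap, and the inhibitor arrays lay between the other groups. LPS lowered *Dnmt1* 2.87-fold (log2 difference −1.52, SE 0.077, adjusted p = 0.00343), equally in replicate 1 (−1.52) and replicate 2 (−1.53). With the inhibitor it was 1.56-fold higher than with LPS alone (log2 difference 0.65, SE 0.077, 95% interval 0.43 to 0.86, adjusted p = 0.0264), by 0.73 and 0.56 in the 2 replicates, and it remained below untreated cells (−0.88, SE 0.077, adjusted p = 0.0105).

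The gain of *Dnmt1* with the inhibitor kept its sign and size in every alternative, from 0.59 to 0.69, but its call did not hold in most of them. It missed the threshold with only the 2 groups compared in the fit (adjusted p = 0.0764), with the log2 table of the authors (0.0746), with the replicate number as a block (0.0533), and with any of the 6 arrays left out. Those values were 0.0764 without untreated replicate 1 or 2, 0.0925 and 0.0729 without LPS replicates 1 and 2, and 0.0842 and 0.0550 without LPS+USP7i replicates 1 and 2. The deficit against untreated cells likewise missed it without untreated replicate 1 (0.0522) or 2 (0.0622).

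*Uhrf1* fell with LPS as *Dnmt1* did, but its difference with the inhibitor had the other sign. On probe 1 (chr17:56462770-56462829, mm9) the log2 signal was 10.91 and 10.90 in untreated BMDMs, 9.74 and 9.80 after LPS, and 9.37 and 9.38 after LPS+USP7i. The replicates were within 0.06 of each other and the 3 groups did not overlap, with the inhibitor arrays lowest. LPS lowered *Uhrf1* 2.20-fold (log2 difference −1.13, SE 0.056, adjusted p = 0.00335), and with the inhibitor it was a further 1.32-fold lower (−0.40, SE 0.056, 95% interval −0.55 to −0.24, adjusted p = 0.0346), by −0.37 and −0.42 in the 2 replicates. Against untreated cells the difference with LPS+USP7i was −1.53 (SE 0.056, adjusted p = 0.00437), 2.89-fold.

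The difference of *Uhrf1* between LPS+USP7i and LPS was negative in all alternatives, between −0.50 and −0.37 in those on probe 1 alone, and passed in 3 of 15. Its adjusted p was 0.102 with only those 2 groups in the fit and without untreated replicate 1 or 2, and 0.0879, 0.0973, 0.0946, and 0.0726 without LPS replicates 1 and 2 and LPS+USP7i replicates 1 and 2. It was 0.153 with the table of the authors, 0.0707 with 75th percentile scaling, 0.0555 with dim probes left out, and 0.0629 with the replicate number as a block. With both probes averaged the difference was −0.26 (adjusted p = 0.218). Probe 2 of *Uhrf1* was well above background in untreated cells (4.66 and 5.01), but not with LPS (2.88 and 2.59) or with LPS+USP7i (2.51 and 2.71). It therefore gives a bound, at least 1.27-fold lower with LPS and at least 1.47-fold lower with LPS+USP7i than untreated, and no value for the effect of the inhibitor. The bound takes the lowest signal that was well above background on each dim array. The adjusted p in limma was 0.00705 and 0.00956. It belongs to the fit without that bound (log2 differences −2.10 and −2.22) and is no test of the bound, here or for the bounds below.

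Both genes have RefSeq promoter windows (GRCm38.p6, 250 bases before to 50 after a transcription start) that hold matches to the E2F motif searched, TTTGGCGC or TTTCGCGC on either strand. Of all 32851 windows, 0.813% hold one. The windows are shown because *Dnmt1* and *Uhrf1* both fell with LPS and differed with the inhibitor, with matches in capitals.
*Dnmt1*, chr9:20952574-20952873, minus strand: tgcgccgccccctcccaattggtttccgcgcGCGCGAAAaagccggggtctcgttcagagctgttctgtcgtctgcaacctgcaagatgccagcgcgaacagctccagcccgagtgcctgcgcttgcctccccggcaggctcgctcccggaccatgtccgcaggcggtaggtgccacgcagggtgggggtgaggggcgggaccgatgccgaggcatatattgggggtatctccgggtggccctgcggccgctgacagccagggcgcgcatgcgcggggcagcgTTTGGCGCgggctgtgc
*Uhrf1*, chr17:56304063-56304362, plus strand: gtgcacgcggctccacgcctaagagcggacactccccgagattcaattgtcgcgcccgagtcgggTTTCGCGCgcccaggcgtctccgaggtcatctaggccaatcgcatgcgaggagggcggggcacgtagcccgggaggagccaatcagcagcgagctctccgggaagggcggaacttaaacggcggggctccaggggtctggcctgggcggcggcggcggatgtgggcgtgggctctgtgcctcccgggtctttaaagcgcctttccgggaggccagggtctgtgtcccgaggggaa
In the *Dnmt1* window one match starts 219 bases before the start site and is read on the opposite strand, and the other starts at base 34 after it. In the *Uhrf1* window the match starts 185 bases before the start site. Both windows hold 33 CpG dinucleotides, against a median of 7 over all windows. The other 2 windows of *Dnmt1* and the other window of *Uhrf1* held no match. The 15 windows of 8 of the genes were also searched on both strands for the interferon response core GAAANNGAAA (3.44% of all windows), which 1 *Kat5* window held, the GAS motif TTCNNNGAA (8.3%), which 0 of them held, and the kappaB consensus (8.46%). No stretch can match both GAAANNGAAA and TTCNNNGAA, though matches to them can overlap in part. The 3 windows of *Daxx* held none of the 4 motifs. A match is a stretch of letters and was not tested as a binding site.

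Of 14 other genes of DNA methylation and its removal, 2 rose and 4 fell with LPS (median −0.083). *Tet2*, which oxidizes methylated cytosine, rose by 2.36 (adjusted p = 0.00488), while the de novo methyltransferase *Dnmt3a* had a difference of −2.02 (adjusted p = 0.00872) and the glycosylase *Mbd4* of −1.79 (adjusted p = 0.00669). In LPS+USP7i against LPS 3 were higher and 2 lower (median −0.056). *Dnmt3l*, a cofactor of the de novo enzymes, gave 6.49 and 6.39 in untreated BMDMs, 7.50 and 7.16 after LPS, and 10.87 and 11.31 with the inhibitor. It was 13.5-fold higher with the inhibitor than with LPS alone (log2 difference 3.76, SE 0.21, adjusted p = 0.0113). *Uhrf2*, the paralog of *Uhrf1*, was higher by 1.27 (adjusted p = 0.0198), the direction opposite to *Uhrf1*, and *Tet2* had a difference of −1.67 (adjusted p = 0.0193).

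*Rnf2* and *Bmi1* encode RING1B and its partner in Polycomb repressive complex 1 (PRC1), the complex that attaches ubiquitin to histone H2A. *Rnf2* (chr1:153316987-153317046, mm9) gave 10.07 and 10.04 in untreated BMDMs, 10.95 and 11.06 after LPS, and 10.83 and 10.98 after LPS+USP7i. The LPS and LPS+USP7i arrays overlapped, and both groups were above the untreated arrays. LPS raised *Rnf2* 1.93-fold (log2 difference 0.94, SE 0.085, adjusted p = 0.00738), with 0.88 and 1.01 in the 2 replicates, and with arrays left out in turn the call was lost without untreated replicate 2 (adjusted p = 0.0535). The difference is also short of a log2 difference of 1, the size asked in another alternative. With the inhibitor the difference from LPS was −0.098 (SE 0.085, 95% interval −0.33 to 0.14, adjusted p = 0.605), which leaves room for a decrease or a small increase. Against untreated cells it was 0.85 (SE 0.085, adjusted p = 0.0128), which missed the threshold without untreated replicate 1 (0.0712) or 2 (0.0771).

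The single *Rnf2* window is shown because *Rnf2* rose with LPS and it was the only one of the 15 with a match to the kappaB consensus, in capitals.
*Rnf2*, chr1:151500942-151501241, minus strand: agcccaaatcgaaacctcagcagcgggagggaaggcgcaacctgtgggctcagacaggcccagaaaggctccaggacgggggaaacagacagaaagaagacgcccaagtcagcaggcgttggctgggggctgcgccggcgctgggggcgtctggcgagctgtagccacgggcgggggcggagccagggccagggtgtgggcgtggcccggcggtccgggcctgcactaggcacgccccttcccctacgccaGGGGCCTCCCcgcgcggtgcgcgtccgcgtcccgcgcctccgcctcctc
The match starts at base 2 after the start site, and the window holds 30 CpG dinucleotides. Of all 32851 windows, 8.46% hold a match to this consensus, and whether the 15 windows differ from that share was not tested. The windows of *Daxx*, which rose more with LPS, held no such match. Whether the match has a part in the rise of *Rnf2* was not tested.

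*Bmi1* stayed within a narrow range. Probe 1 (chr2:18607531-18607590, mm9) gave 10.11 and 10.16 in untreated BMDMs, 10.28 and 10.44 after LPS, and 9.97 and 10.27 after LPS+USP7i. Probe 2 (chr2:18607987-18608046) gave 9.02 and 9.06, 8.996 and 9.23, and 8.46 and 8.76. On both probes the LPS+USP7i arrays lay below the LPS arrays, without overlap. The difference between these groups was −0.24 on probe 1 (SE 0.13, 95% interval −0.61 to 0.12, adjusted p = 0.429) and −0.51 on probe 2 (SE 0.14, adjusted p = 0.135), and neither passed the threshold. With LPS alone the differences from untreated cells were 0.23 (adjusted p = 0.392) and 0.073 (adjusted p = 0.865).

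Among 21 other PRC1 subunits and partners, 4 rose and 8 fell with LPS (median −0.30). *Pcgf5*, a paralog of *Bmi1*, had 10.63 and 10.49 in untreated BMDMs, 13.36 and 13.07 after LPS, and 11.35 and 11.80 after LPS+USP7i. It rose 6.29-fold with LPS (adjusted p = 0.00559) and was 3.12-fold lower with the inhibitor than without it (log2 difference −1.64, SE 0.20, adjusted p = 0.0273). The chromodomain subunits *Cbx8* and *Cbx2* were well above background in untreated cells but not with LPS, and were at least 3.46-fold and at least 3.72-fold lower with LPS. In the limma fit without that bound their adjusted p was 0.00274 and 0.00983. With the inhibitor, relative to LPS alone, 2 of the 21 genes were higher and 4 lower (median −0.14). *Bcor*, a subunit of a variant complex, had a difference of −1.62 (adjusted p = 0.0148) and *Rybp*, which bridges RING1B and its targets, of 1.46 (adjusted p = 0.0251).

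RNF168 is the ligase that extends ubiquitin on histone H2A around DNA double-strand breaks. *Rnf168* (chr16:32300879-32300938, mm9) gave 9.51 and 9.49 in untreated BMDMs, 8.62 and 8.81 after LPS, and 8.79 and 8.92 after LPS+USP7i. Every stimulated array was below both untreated arrays, and the stimulated groups overlapped. LPS lowered *Rnf168* 1.72-fold (log2 difference −0.78, SE 0.096, adjusted p = 0.0140), by −0.88 and −0.68 in the 2 replicates. With the inhibitor the difference from LPS was 0.14 (SE 0.096, 95% interval −0.12 to 0.41, adjusted p = 0.545) and that from untreated cells −0.64 (SE 0.096, adjusted p = 0.0283). The call for LPS was lost without untreated replicate 1 (0.0782) or 2 (0.0791). That for LPS+USP7i against untreated cells was lost without either of them (0.130 and 0.126), without LPS+USP7i replicate 1 (0.0910) or 2 (0.0655), and with the log2 table of the authors (0.111).

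Of 17 other genes of ubiquitin signalling at double-strand breaks, 1 rose and 8 fell with LPS, with a median of −0.48, where 12.8% of all genes tested and 23.9% of those well above background on all arrays fell. This was not particular to the list. Those that fell were 8 of 21 in the PRC1 list, 6 of 13 in the FOXO list, and 12 of 22 replication genes, and a smaller share in the other related lists. *H2ax*, the histone variant that marks breaks, had a difference of −1.89 (adjusted p = 0.00732), *Mdc1*, the adaptor that reads that mark, of −1.40 (adjusted p = 0.0159), and *Abraxas1*, of a complex that removes ubiquitin there, of −1.46 (adjusted p = 0.0148). In LPS+USP7i against LPS 2 were higher and 2 lower (median −0.049). *H2ax* was higher by 1.35 (adjusted p = 0.0282), and the kinase *Atm* and the BRCA1 partner *Bard1* had differences of −2.74 (adjusted p = 0.0220) and −1.14 (adjusted p = 0.0455).

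*Kat5* encodes TIP60, the acetyltransferase of the NuA4 complex. Of the 9 genes it varied least over the 6 arrays, with an SD of 0.13 on each probe. Probe 1 (chr19:5603017-5603076, mm9) gave 12.43 and 12.28 in untreated BMDMs, 12.33 and 12.14 after LPS, and 12.26 and 12.09 after LPS+USP7i. Probe 2 (chr19:5603418-5603477) gave 10.08 and 9.99, 10.35 and 10.05, and 10.11 and 10.04. The LPS arrays overlapped the untreated arrays and the LPS+USP7i arrays on both probes. With LPS the difference was −0.12 on probe 1 (SE 0.12, 95% interval −0.45 to 0.20, adjusted p = 0.599) and 0.16 on probe 2 (SE 0.13, adjusted p = 0.521), and with 75th percentile scaling probe 1 gave 0.25. With the inhibitor it was −0.058 (95% interval −0.38 to 0.27, adjusted p = 0.866) and −0.12 (adjusted p = 0.667).

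Of 17 other subunits of the TIP60 complex 3 rose and 3 fell with LPS (median −0.20). *Ep400*, its ATPase, rose by 1.17 (adjusted p = 0.00401) and *Mrgbp* by 0.81 (adjusted p = 0.0176), while the bromodomain subunit *Brd8*, well above background on 5 arrays, had a difference of −1.14 (adjusted p = 0.0135). With the inhibitor, relative to LPS alone, 0 were higher and 1 was lower in limma (median −0.094), and at an unadjusted p under 0.05 the counts were 1 and 3. That gene was *Ep400*, with 9.49 and 9.43 in untreated BMDMs, 10.64 and 10.61 with LPS, 9.65 and 9.75 after LPS+USP7i, and a difference of −0.92 (SE 0.068, adjusted p = 0.0144).

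*Foxo4*, the forkhead transcription factor, could not be followed. Its probe 1 (chrX:98454966-98455025, mm9) was well above background on both untreated arrays (4.32 and 4.37), on neither LPS array (3.33 and 3.88), and on 1 of 2 LPS+USP7i arrays (3.55 and 4.65). Probe 2 (chrX:98454974-98455033), which overlaps probe 1, passed on untreated replicate 1 alone (4.12, with 3.76 on replicate 2, 3.096 and 2.02 after LPS, and 1.91 and 1.96 after LPS+USP7i). Probe 3 (chrX:98451524-98451583) was well above background on none of the arrays and lay between 3.23 and 4.10. A fitted difference of *Foxo4* is therefore no measured change, and no *Foxo4* probe passed the threshold in any comparison, with adjusted p between 0.0540 and 0.855. No promoter window of *Foxo4* was used here.

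Of 13 other FOXO factors, regulators, and targets, 2 rose and 6 fell with LPS (median −0.081), and 3 were higher and 4 lower with the inhibitor than with LPS alone (median 0.15). *Foxo3*, a paralog, gave 7.06 and 7.18 in untreated BMDMs, 5.17 and 5.01 after LPS, and 8.66 and 7.93 after LPS+USP7i. LPS lowered it 4.09-fold (adjusted p = 0.0163), and it was 9.22-fold higher with the inhibitor than with LPS alone (log2 difference 3.20, SE 0.27, adjusted p = 0.0162). *Sesn1*, a stress response gene and FOXO target, had 13.61 and 13.29, 7.77 and 7.85, and 9.79 and 9.26 in the same order, and was 49.8-fold lower with LPS (adjusted p = 0.00289). *Ccng2*, an inhibitor of cell cycle progression, rose by 2.25 with LPS (adjusted p = 0.0192) and had a difference of −2.10 with the inhibitor (adjusted p = 0.0395). *Pik3ip1*, an inhibitor of phosphoinositide 3-kinase, had a difference of −2.05 with the inhibitor (adjusted p = 0.0221).

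**Figure D3:**
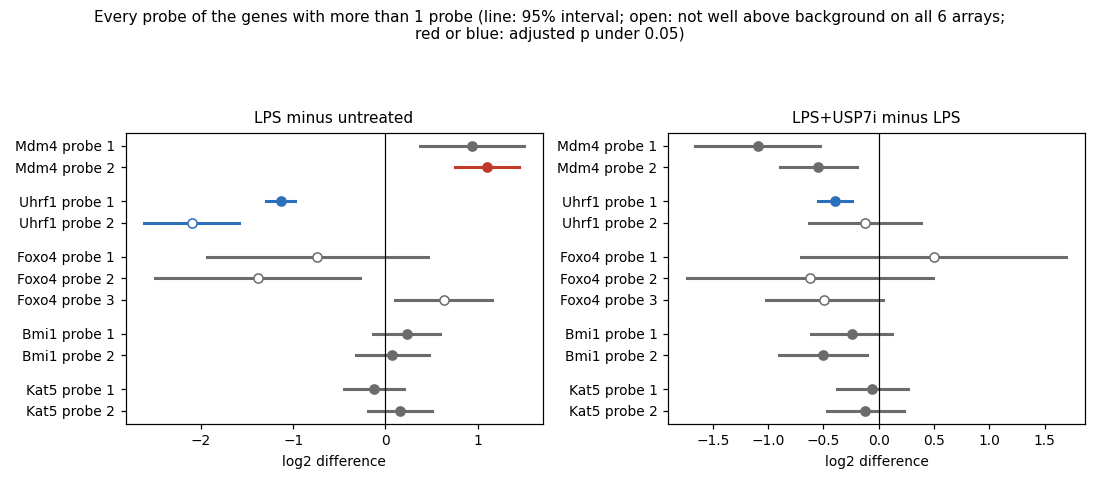
Log2 differences with 95% intervals for every probe of the 5 genes with more than 1 probe, for LPS minus untreated and LPS+USP7i minus LPS (x axes, log2 scale), with open symbols for probes that were not well above background on all 6 arrays. The *Mdm4* probes lie on the same side of 0 in both panels, only probe 1 of *Uhrf1* passed with the inhibitor, and the *Foxo4* probes lie on both sides of 0.

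For the 5 genes that LPS changed, the share of the log2 change left with LPS+USP7i was taken. It was 64.7% for *Daxx*, 57.5% for *Dnmt1*, 81.8% for *Rnf168*, 89.6% for *Rnf2*, and 135% for probe 1 of *Uhrf1*. The differences between LPS+USP7i and LPS behind the shares of *Daxx*, *Rnf168*, and *Rnf2* did not pass the threshold. These shares have the untreated and LPS arrays in common and are given as a description. Whether they differ between genes was not tested.

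*Usp7* itself did not pass the threshold. Its log2 difference was 0.44 with LPS (SE 0.13, adjusted p = 0.104), −0.14 for LPS+USP7i against LPS (95% interval −0.49 to 0.21, adjusted p = 0.627), and 0.30 against untreated cells (adjusted p = 0.258). *Trp53*, which encodes p53, rose 2.67-fold with LPS (adjusted p = 0.0253) and differed by −0.14 with the inhibitor (adjusted p = 0.816). *Mdm2*, the p53 ligase and partner of MDM4, differed by −0.099 with LPS (adjusted p = 0.892) and by 0.99 in LPS+USP7i against LPS (SE 0.22, adjusted p = 0.0798), the sign opposite to both *Mdm4* probes.

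Of 23 other USP7 substrates and partners, *Trp53* and *Mdm2* included, 4 rose and 5 fell with LPS (median −0.026), beside 2 and 3 of the 9 genes. *Xpc*, which recognizes damaged DNA, had 10.20 and 10.01 in untreated BMDMs, 7.82 and 7.59 after LPS, and 9.18 and 8.89 after LPS+USP7i. LPS lowered it 5.27-fold (adjusted p = 0.00443), and it was 2.51-fold higher with the inhibitor than with LPS alone (adjusted p = 0.0253), the pattern of directions that *Dnmt1* showed. The checkpoint adaptor *Clspn* was not well above background with LPS and at least 2.70-fold lower than in untreated cells (adjusted p = 0.0174 in the limma fit without that bound). In LPS+USP7i against LPS 1 of the 23 was higher and 3 were lower (median 0.052), among them *Ccdc6*, a difference of −1.14 (adjusted p = 0.0265), and the ubiquitin-conjugating enzyme *Ube2e1*, −0.75 (adjusted p = 0.0493).

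**Figure D4:**
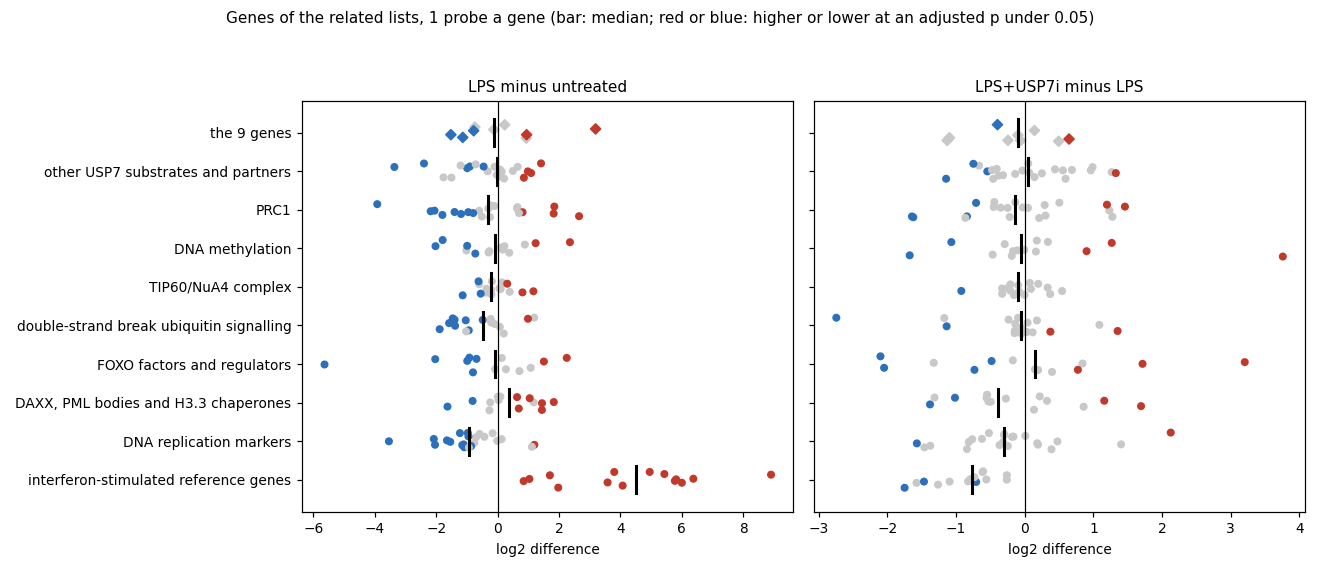
Log2 differences of the 9 genes (diamonds) and of the genes of 9 related lists (circles), 1 probe a gene, for LPS minus untreated and LPS+USP7i minus LPS (x axes, log2 scale), colored where the adjusted p was under 0.05, with the list median as a bar. The medians of the 9 genes, −0.12 and −0.098, lie near 0 in both panels, while the medians of the interferon-stimulated and the replication genes with LPS are at 4.51 and −0.94.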

How the data were processed

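The members and gene lists were chosen with earlier results of these data known. Cy3-labeled RNA was hybridized to 6 Agilent mouse arrays, 2 a group, and the authors deposited the spot intensity values of Agilent Feature Extraction 10.7.3.1, background-subtracted by that software, and a table of log2 values that they had quantile-normalized with limma. Depth of an array is its number of spots well above background, 25002 to 27467 of 59305, and the number of arrays limits the precision. Here the log2 processed intensity was quantile-normalized over spots that were not controls, spots flagged as outliers were dropped, and spots of a probe were averaged. All 3 groups were fitted with limma 3.58.1 in R 4.3.3 (3 residual and 1.05 prior degrees of freedom), with Benjamini-Hochberg adjustment over 55680 probes at 0.05. Of these steps, only the limma fit was run on simulated data. Its noise was independent between arrays, and its shifts were larger than the inhibitor differences of the 9 genes. Separate samples came from independent experiments per the series description. A gene was represented by its brightest probe. The text names the 9 genes with all probes, *Usp7*, *Trp53*, and *Mdm2*, up to 3 genes with the largest difference past the threshold from each related list and comparison, and the 3 genes with the most similar profile. A gene that this rule names is not reported here. Lists were described by counts and medians. Alternatives were 75th percentile scaling, normexp (offset 50), the deposited log2 table, outliers kept, dim probes left out, a trended prior, only 2 groups, a replicate block, each array left out, all probes of a gene averaged, and a log2 difference of at least 1. Sequences came from the array files and from RefSeq (GRCm38.p6).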

Additional observations from a re-analysis of the deposited data

How the results depend on the processing

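The 15 alternatives kept the direction of every difference of *Daxx*, *Dnmt1*, *Uhrf1*, *Rnf2*, and *Rnf168*, and with LPS against untreated cells those of *Daxx*, *Dnmt1*, and *Uhrf1* stayed past the threshold in each. Of the differences of the 9 genes, 342 of the values under alternatives kept side and sign, 35 were no longer past the threshold, 12 newly passed it, and 16 had the other sign, all of the last in *Mdm4*, *Foxo4*, *Bmi1*, or *Kat5* and none past the threshold in the main analysis. Scaling to the 75th percentile moved the median of all probes by 0.51 for LPS and 0.55 for LPS+USP7i against untreated cells. So 21768 and 21937 probes were higher there, among them 5 probes of the 9 genes with LPS. With that scaling 0 probes or genes of the 9 were lower with the inhibitor than with LPS, beside 1990 of all probes. Under that scaling *Kat5* was at 0.25 with LPS, and *Foxo4* at 0.052, *Bmi1* at 0.043, and *Kat5* at 0.025 with LPS+USP7i, all below the shift. Other sign changes were *Kat5* 0.018 with LPS, *Foxo4* −0.21 for the inhibitor, and *Mdm4* 0.20 for LPS+USP7i against untreated cells with all probes of a gene averaged, *Foxo4* 0.025 with normexp correction, and *Bmi1* 0.064 with the deposited values, the last 2 against untreated cells. The *Foxo4* values here and below are fitted from probe 1, or for −0.21 from the mean of 3 probes, none of them well above background on either LPS array, and are no measured change. The cause was not tested.

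For LPS+USP7i against LPS, 1 gene was higher and 1 lower in the main analysis. With only the 2 groups compared, 0 genes and 0 probes of the 9, and 0 of all probes, were higher and 0 were lower. These are limma counts, and at an unadjusted p under 0.05 that fit had 6051 of all probes higher and 5206 lower, against 6955 and 5731 with all groups fitted. At that level 1 of the 9 genes was higher and 3 were lower in the main analysis and with only 2 groups. The authors' deposited values called 0 genes and 0 probes of the 9 higher, beside 1837 of all probes. The lower count was 3 genes and 4 probes with normexp correction, 2 and 3 with dim probes left out, 2 and 2 with a trended prior, and 2 genes with all probes averaged. Of all probes 3242 were lower with normexp correction, 3287 with dim probes left out, and 2160 with a trended prior. Requiring a log2 difference of at least 1 left 0 genes higher and 0 lower, 1 gene higher with LPS, and 1 higher and 1 lower with LPS+USP7i against untreated cells. In that last comparison the deposited table called 2 probes of the 9 genes and 3030 of all probes lower. There a fit of only the 2 groups called 1994 of all probes higher and 2690 lower.

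The replicate number was fitted as a block as well. The labels give no batch for the numbers, which also mark the slide column, and the deviations of same-numbered arrays from their group means correlated at 0.47, 0.40, and 0.42 over 20721 probes. With the block 0 genes and 0 probes of the 9 were higher and 0 were lower for LPS+USP7i against LPS in limma. The adjusted p was 0.0533 for *Dnmt1* and 0.0629 for *Uhrf1*. Of all probes, 1947 were higher and 1596 lower in that comparison with the block, against 2595 and 2109 in the main analysis. The block changed no other call of the 9 genes.

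With each array left out in turn, genes of the 9 called higher with LPS ranged from 1 to 2, and their probes from 1 to 3. Those lower ranged from 2 to 3 genes and from 3 to 5 probes. For LPS+USP7i against LPS both directions ranged from 0 to 0, and against untreated cells from 0 to 2 genes and 0 to 3 probes higher and from 1 to 3 genes and 1 to 5 probes lower. Over all probes the counts ranged from 1632 to 3696 higher and 2385 to 5481 lower with LPS, from 0 to 2855 higher and 0 to 1703 lower for the inhibitor, and from 680 to 2970 higher and 877 to 2690 lower for LPS+USP7i against untreated cells. Leaving out an array turned some signs, with ranges for LPS+USP7i against LPS of −0.053 to 1.04 for *Foxo4* and −0.15 to 0.038 for *Kat5*, and against untreated cells of −0.40 to 0.073 for *Mdm4*, −0.79 to 0.30 for *Foxo4*, and −0.16 to 0.14 for *Bmi1*. Signal limits *Foxo4*, the second probe of *Uhrf1*, and *Mdm4*.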

Other observations

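Genes with profiles most like each of 8 of the 9 genes were found by the root mean square (RMS) difference between log2 values. These were centred on each gene's own mean, over 6 arrays and 11648 candidate genes. The candidates were well above background throughout but are fewer than the 15612 such genes counted above, and what set the others aside is not given here. *Foxo4* was left out, since its brightest probe was not well above background on some arrays. The nearest to *Daxx* were *Icosl* (RMS 0.10), *Casp4* (0.13), and *Helz2* (0.13), against a median of 1.46 over the candidates. The nearest to *Dnmt1* were *Triap1* (0.048), *Tmem129* (0.053), and *Abcd4* (0.063), and those to *Uhrf1* were *Timm10b* (0.066), *Lrch4* (0.068), and the replication helicase subunit *Mcm7* (0.073). For *Mdm4* they were *Lpcat2*, *H2-M3*, and *4933404K13Rik* (0.076 to 0.091), for *Rnf2* *Gsdmc*, *Zc3h15*, and *H3c4* (0.039 to 0.044), and for *Rnf168* *Fnta*, *Zcchc17*, and *Gamt* (0.031 to 0.041). For *Bmi1* they were *Ints5*, *Ifnar2*, and *Galm* (0.029 to 0.036), and for *Kat5* *Emp3*, *Zfp346*, and *Rce1* (0.035 to 0.044). The points share arrays, and likeness over 6 arrays is a description.

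Genes of DNA replication and interferon-stimulated genes give a scale for the 9 genes. Of 22 genes of DNA replication, 1 rose and 12 fell with LPS (median −0.94), and 1 was higher and 1 lower with the inhibitor than with LPS alone (median −0.30). The licensing factor *Cdt1* had a difference of −2.04 with LPS (adjusted p = 0.0143) and the chromatin assembly subunit *Chaf1a* of −2.08 (adjusted p = 0.00388). *Cdc6*, which loads the helicase, was not well above background with LPS, at least 5.66-fold lower than in untreated cells and at least 2.13-fold lower than with LPS+USP7i. In the limma fit without these bounds the adjusted p was 0.00518 and 0.0265. The clamp loader subunit *Rfc3* had a difference of −1.57 with the inhibitor (adjusted p = 0.0388). *Uhrf1* and *Dnmt1* both fell with LPS, as did 12 of the 22, while with the inhibitor *Uhrf1* differed by −0.40 and *Dnmt1* by 0.65, on either side of the median of the list.

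All 14 interferon-stimulated genes rose with LPS (median 4.51), *Cxcl10* by 8.91 (adjusted p = 0.00280), *Rsad2* by 6.38 (adjusted p = 0.00349), and *Mx1* by 6.00 (adjusted p = 0.00390). With the inhibitor 0 of the 14 were higher and 3 were lower in limma than with LPS alone (median −0.76), beside 0 and 8 at an unadjusted p under 0.05. Among these were *Usp18* (−1.75, adjusted p = 0.0298) and *Oas1a* (−0.71, adjusted p = 0.0442). *Daxx* rose by 3.19 with LPS and differed by −1.13 with the inhibitor, which did not pass the threshold (adjusted p = 0.0536), and no test against the list was run.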
